A study of Mus musculus with 16 samples.

Results

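Ifitm1, Ifitm2, Ifitm3, Bst2, Rsad2, Cmpk2, Ifi27l2a, Ifi44, Rtp4 and Xaf1 encode membrane and effector proteins of the antiviral response. These 10 genes of 36722 in the deposited table were taken by symbol, and each symbol matched exactly 1 row. The list was chosen from antiviral gene families with differences between these same libraries already known. The differences that guided it are taken here to be those between fusion protein and vehicle libraries, so that comparison is given as a description, with no p-value for any of the genes and no weight on its calls. All 10 passed the filter on low values, which kept 13385 genes.

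The RNA came from lumbar dorsal root ganglia (DRG, levels 3 to 5), where the cell bodies of sensory neurons lie with satellite glia, Schwann cells, vessels and resident immune cells. All mice were of strain C57BL/6 and carried a paw inflammation made by 20 µl of 2% carrageenan injected into the sole. On day 6 they received an intrathecal injection of 1 µg of IL4-10 FP, a fusion protein of interleukin 4 and interleukin 10 (n = 6), of 0.5 µg IL4 with 0.5 µg IL10 as separate proteins, called the combination here (n = 5), or of PBS as vehicle (n = 5), and ganglia were collected 6 hours later. Every group, vehicle included, was therefore inflamed, and a group without carrageenan is not analysed here. The labels give neither age nor sex and do not say whether a library came from 1 animal or from a pool. The p-values therefore set each difference against the spread between libraries, which may not be single animals.

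Interferons bind receptors at the cell surface and act through JAK kinases and a complex of STAT proteins with IRF9, which binds interferon-stimulated response elements in promoters. The genes so induced form a first line of defence in nearly every cell type. IFITM proteins sit in plasma and endosomal membranes and hinder the fusion of virus with the cell. Tetherin, the product of Bst2, holds budding particles at the surface. Viperin, encoded by Rsad2, makes a chain-terminating nucleotide, and Cmpk2, a mitochondrial nucleotide kinase, lies beside it in the genome. Rtp4 is a transmembrane chaperone of receptors, Xaf1 binds the apoptosis inhibitor XIAP, Ifi27l2a is a small hydrophobic membrane protein and Ifi44 a protein of the cytoplasm, and all of them are known to be induced by interferon.

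Values are given on 2 scales. The deposited table gives each gene on a log2 scale after variance stabilisation, and all differences below are taken there. The values map back to whole numbers, called scaled values, in which a gene without signal has a value of 1. Scaled values are not read counts, and the read depth of the libraries is unknown. Their sum over all genes, in units of 1000000, was 16.7 to 19.1 in fusion protein, 18.2 to 20.9 in combination and 17.2 to 18.7 in vehicle libraries. Summed scaled values of 12 sensory neuron markers were 169197 to 253500 in fusion protein, 182195 to 226248 in combination and 167605 to 210019 in vehicle libraries, and none of these markers was without signal.

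The 10 genes lie on 6 mouse chromosomes (build GRCm38, GENCODE M21 annotation). Ifitm2 (chromosome 7, 140954837 to 140955987, minus strand), Ifitm1 (140967221 to 140969825, plus strand) and Ifitm3 (141009586 to 141010770, minus strand) are neighbours, with gaps of 11233 and 39760 bases. Rsad2 (chromosome 12, 26442746 to 26456452, minus strand) and Cmpk2 (26469204 to 26479837, plus strand) point away from each other across 12751 bases. Ifi27l2a lies elsewhere on chromosome 12, Bst2 on chromosome 8, Ifi44 on 3, Rtp4 on 16 and Xaf1 on 11.

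RefSeq promoter sequences of build GRCm38.p6, running from 250 bases before the annotated start to 50 after it, were found for 8 of the 10 genes, all but Ifi27l2a and Rtp4. They were searched on both strands for GAAANNGAAA, the core that interferon regulatory factors and the STAT complex with IRF9 recognise. At least 1 match was present in 4 of these 8 genes, against 3.99% of the 27025 genes of the table and 3.44% of its 32851 promoters. The stretches of 60 bases around the matches are shown because they are a sequence feature that 4 of these genes share. Promoter sequence was not used to choose the genes, but all are known to be induced by interferon. The share among them is therefore not independent of the choice. Capitals mark the matches, and each sequence reads in the direction of its gene.
Ifitm2, chr7:140955973-140956032, minus strand: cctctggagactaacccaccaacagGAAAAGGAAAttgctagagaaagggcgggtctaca
Ifitm3, chr7:141010699-141010758, minus strand: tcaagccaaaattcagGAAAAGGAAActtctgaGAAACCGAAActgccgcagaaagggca
Bst2, chr8:71537565-71537624, minus strand: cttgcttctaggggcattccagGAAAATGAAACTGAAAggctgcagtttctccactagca
Rsad2, chr12:26456538-26456597, minus strand: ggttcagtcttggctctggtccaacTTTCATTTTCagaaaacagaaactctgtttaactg

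Ifitm3 held 2 separate matches and Bst2 2 that overlap each other, while Ifitm2 held 1, which has the same letters as the first of Ifitm3. The match of Rsad2 lies on the opposite strand of the gene. The windows of Ifitm1, Cmpk2, Ifi44 and Xaf1 did not hold this string of letters. That of Ifitm1 runs from 140967826 to 140968125, inside the gene as GENCODE annotates it. The bases before its GENCODE start at 140967221 were therefore not searched. Another string, TTCNNNGAA, was also searched and was found in 2 of the 8 genes, Ifitm3 and Bst2, against 9.55% of the genes of the table. A match describes these letters and is not a measured binding site.

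**Figure D1:**
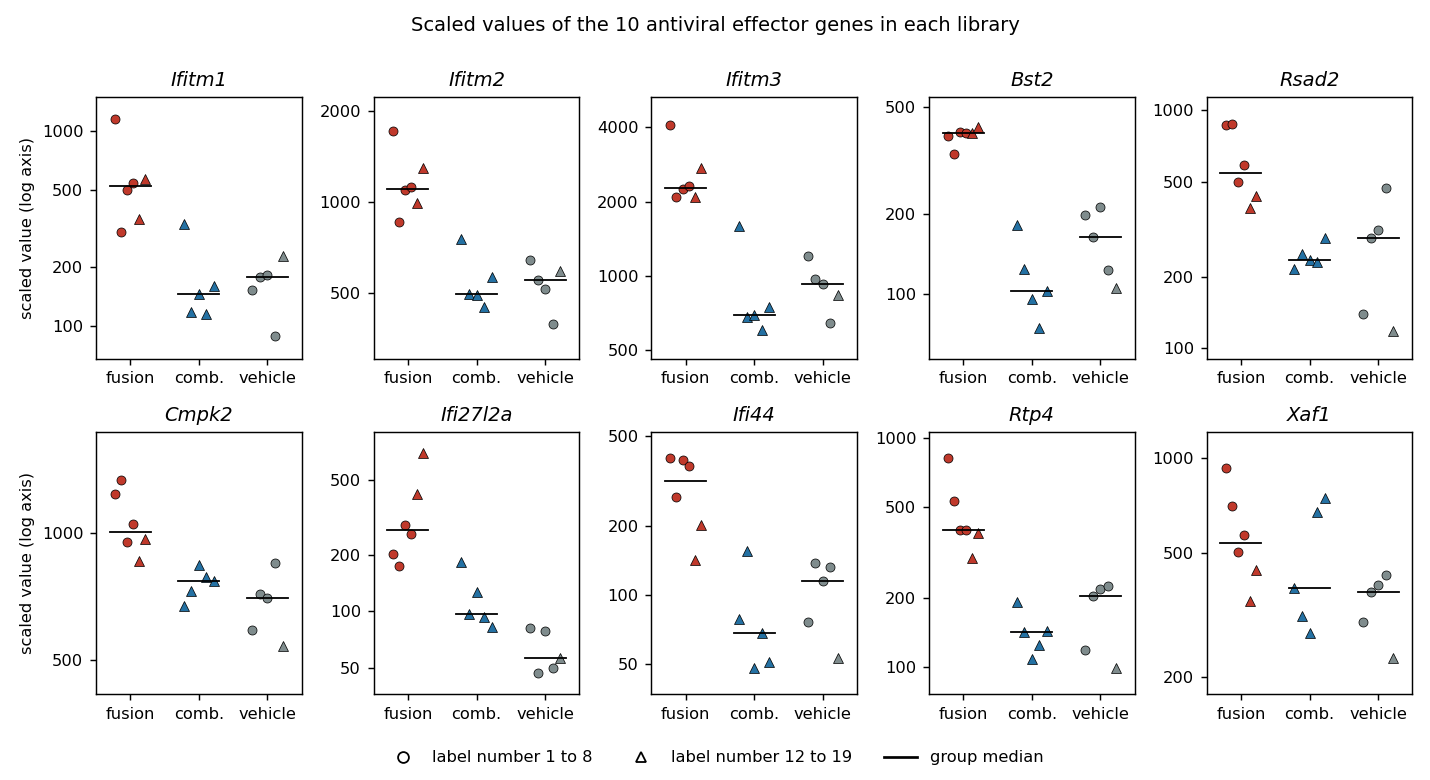
Each point is the scaled value of 1 library (log axis, a separate axis for each gene) in the fusion protein (n = 6), combination (n = 5) and vehicle (n = 5) groups. Lines are group medians, circles are libraries with label numbers 1 to 8 and triangles those with 12 to 19. For Bst2 the fusion protein libraries lie between 335 and 420, above every combination and vehicle library, while for Xaf1 all groups overlap.

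The fusion protein group mean lay above those of both other groups in all 10 genes. The smallest ratio of mean scaled values was 1.22 against the combination, in Xaf1, and 1.57 against vehicle, in Cmpk2. Ifitm1, Ifitm3 and Ifi27l2a had the largest differences from vehicle, 1.23 to 1.38 on the log2 scale, and the tetherin gene Bst2 was the most even among fusion protein libraries. No member passed the test between combination and vehicle libraries. The groups nevertheless separated in part in Ifi27l2a, where every combination library lay above every vehicle library, and Xaf1, where 2 combination libraries reached the level of the fusion protein group.

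Ifitm3, the IFITM protein best known for blocking viruses in endosomes, had scaled values of 2079 at the lowest, 2275 at the median and 4089 at the highest in fusion protein libraries, 1595, 679, 695, 602 and 746 in combination libraries, and 1201, 974, 931, 643 and 839 in vehicle libraries. Every fusion protein library lay above all others, and combination replicate 1 lay far above the other 4 of its group. The log2 difference was 1.37 ± 0.22 (SE of limma) for fusion protein minus vehicle. Fusion protein minus combination gave 1.5 ± 0.22 (limma, adjusted p = 0.00104), with all 6 fusion protein libraries above all 5 combination libraries. Combination minus vehicle gave -0.13 ± 0.23 (limma, adjusted p = 0.679).

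Ifitm2, a close relative that acts mainly in endosomes, ran from 858 through a median of 1108 to 1721 in fusion protein libraries, with 751, 494, 491, 447 and 565 in combination libraries and 643, 549, 516, 393 and 591 in vehicle libraries. The fusion protein group again did not overlap with either of the other groups. Its mean was 2.15 times the combination mean and 2.20 times the vehicle mean. The log2 difference was 0.97 ± 0.14 for fusion protein minus vehicle and 0.95 ± 0.14 for fusion protein minus combination (limma, adjusted p = 0.000911). Combination minus vehicle was 0.02 ± 0.15, with a 95% interval of -0.29 to 0.33.

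Ifitm1, the member of the family found at the cell surface, ran from 302 through a median of 518 to 1148 in fusion protein libraries. It had 333, 119, 146, 116 and 160 in combination libraries, and 154, 179, 182, 89 and 230 in vehicle libraries. The fusion protein group was clear of vehicle but overlapped with the combination, whose replicate 1 at 333 exceeded the lowest fusion protein library. The log2 difference was 1.23 ± 0.25 for fusion protein minus vehicle and 1.21 ± 0.25 for fusion protein minus combination (limma, adjusted p = 0.00705). Combination minus vehicle was 0.01 ± 0.27 (95% interval -0.55 to 0.58).

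The 3 Ifitm genes are similar in sequence, and reads that match more than 1 of them could have been split or lost in counting. In GENCODE M21 the predicted gene Gm45717 also covers 40.9% of the exonic length of Ifitm2 on the same strand. Ifitm6, a further gene of this family, rose in fusion protein against combination libraries by 0.54 (limma, adjusted p = 0.0257), while Ifitm10 had a difference of 0.16 that did not pass (adjusted p = 0.219). Ifitm5 and Ifitm7 lay below the filter.

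Bst2 had scaled values from 335 through a median of 399 to 420 in fusion protein libraries. Combination libraries had 181, 124, 96, 75 and 103, and vehicle libraries 198, 163, 211, 123 and 106. No fusion protein library came near the other groups. The coefficient of variation was 7.45% in the fusion protein group, 34.9% in the combination group and 28.5% in the vehicle group, and that of no other member in the fusion protein group was below 17.2%. Log2 differences of Bst2 were 0.92 ± 0.12 for fusion protein minus vehicle and 1.2 ± 0.12 for fusion protein minus combination (limma, adjusted p = 5.62e-06).

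Combination minus vehicle gave -0.28 ± 0.12 in Bst2, which did not pass (limma, adjusted p = 0.0783). Combination libraries with 75, 96 and 103 lay below the lowest vehicle library at 106. The call depended on single libraries. It passed at -0.38 when combination replicate 1 was left out (adjusted p = 0.0112), at -0.33 when this was done with vehicle replicate 4 (adjusted p = 0.0473) and at -0.36 for vehicle replicate 5 (adjusted p = 0.0275). Among the late label numbers, with 1 vehicle library, it was 0.05. Over all 30 alternatives the adjusted p ran from 0.00122 to 0.905.

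Rsad2 ran from 389 through a median of 542 to 873 in fusion protein libraries, with 216, 248, 234, 231 and 289 in combination libraries and 139, 291, 314, 472 and 118 in vehicle libraries. Vehicle libraries varied 4-fold, and vehicle replicate 4 at 472 exceeded 2 of the fusion protein libraries. Combination libraries were even and lay below every fusion protein library. Both log2 differences were alike, 0.97 ± 0.23 for fusion protein minus vehicle and 0.97 ± 0.23 for fusion protein minus combination (limma, adjusted p = 0.0108). Combination minus vehicle was -0.00 ± 0.24 (95% interval -0.52 to 0.52).

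Cmpk2 had 858 at the lowest, 1008 at the median and 1335 at the highest in fusion protein libraries, 670, 727, 839, 784 and 767 in combination libraries, and 587, 717, 699, 848 and 539 in vehicle libraries. The fusion protein group was clear of both others, narrowly at its lowest library. Its differences were the smallest among the genes that passed, 0.57 ± 0.10 for fusion protein minus vehicle and 0.42 ± 0.10 for fusion protein minus combination (limma, adjusted p = 0.0101). Combination minus vehicle was 0.15 ± 0.11 (adjusted p = 0.31). With the late label number in the model, combination minus vehicle was 0.39 and passed (adjusted p = 0.0205). Its relative Cmpk1, a nucleotide kinase of the cytosol, rose against vehicle with the fusion protein by 0.33 (adjusted p = 0.00988) and with the combination by 0.49 (adjusted p = 0.000484), and had -0.16 between them (adjusted p = 0.163).

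Ifi27l2a ran from 175 through a median of 273 to 697 in fusion protein libraries, with 184, 97, 126, 93 and 82 in combination libraries and 81, 47, 78, 50 and 56 in vehicle libraries. The highest values, 421 and 697, belonged to fusion protein replicates 5 and 6, the libraries of that group with late label numbers, and the other 4 lay at 175 to 288. Log2 differences of Ifi27l2a were 1.38 ± 0.22 for fusion protein minus vehicle and 0.95 ± 0.22 for fusion protein minus combination (limma, adjusted p = 0.00864). In scaled values the fusion protein mean was 5.45 times the vehicle mean, a larger ratio than in any other member. Its relative Ifi27 rose against vehicle with the fusion protein by 0.21 (adjusted p = 0.01) and with the combination by 0.29 (adjusted p = 0.000965), and had -0.08 between them (adjusted p = 0.292).

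All 5 combination libraries exceeded all 5 vehicle libraries in Ifi27l2a, an order that 15.1% of all tested genes showed. The difference of 0.44 ± 0.22 did not pass in the model of all libraries (limma, adjusted p = 0.142). It passed in the model of those groups alone (0.44, adjusted p = 0.00895), on the log2 scale of scaled values (0.86, adjusted p = 0.0413), with array weights (0.46, adjusted p = 0.0274) and without fusion protein replicate 6 (0.44, adjusted p = 0.0308). With a covariate for the late label numbers it was -0.02. Over the 30 alternatives the adjusted p ran from 0.00895 to 0.963.

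Ifi44 had 142 at the lowest, 318 at the median and 399 at the highest in fusion protein libraries, 79, 156, 48, 68 and 51 in combination libraries, and 76, 139, 115, 133 and 53 in vehicle libraries. Its lowest fusion protein library, replicate 5, was only just above the highest vehicle library, and combination replicate 2 exceeded it. For Ifi44 the log2 difference was 0.94 ± 0.20 for fusion protein minus vehicle and 1.14 ± 0.20 for fusion protein minus combination (limma, adjusted p = 0.00323). The second value was 0.66 among the late label numbers (adjusted p = 0.0328) and 0.71 with the late label number in the model (adjusted p = 0.0121). Combination minus vehicle was -0.20 ± 0.21 (adjusted p = 0.487). Its neighbour in name, Ifi44l, was near the level of no signal, at 1.17 ± 0.408 in fusion protein (SD, n = 6), 1.80 ± 1.10 in combination and 2.4 ± 1.14 in vehicle libraries (n = 5 each).

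Rtp4 ran from 299 through a median of 398 to 819 in fusion protein libraries, with 192, 142, 108, 125 and 143 in combination libraries and 118, 204, 220, 226 and 99 in vehicle libraries. No fusion protein library overlapped with the others. Rtp4 differed by 1.03 ± 0.18 for fusion protein minus vehicle and by 1.18 ± 0.18 for fusion protein minus combination (limma, adjusted p = 0.00125). Combination minus vehicle was -0.15 ± 0.19 (adjusted p = 0.558). Rtp1, Rtp2 and Rtp3 lay below the filter. The GENCODE gene Gm45338 shares 13.9% of the exonic length of Rtp4 on the same strand.

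Xaf1 ran from 351 through a median of 536 to 933 in fusion protein libraries, with 384, 314, 276, 673 and 749 in combination libraries and 301, 374, 393, 425 and 230 in vehicle libraries. It was the member in which the groups overlapped most. Combination replicate 4 at 673 stood above 4 of the 6 fusion protein libraries and replicate 5 at 749 above 5 of them, and the other 3 combination libraries lay in the vehicle range. Log2 differences of Xaf1 were 0.57 ± 0.23 for fusion protein minus vehicle, 0.26 ± 0.23 for fusion protein minus combination (limma, adjusted p = 0.401) and 0.31 ± 0.24 for combination minus vehicle (adjusted p = 0.337). With the late label number in the model, combination minus vehicle was 0.77 and passed (adjusted p = 0.048), and fusion protein minus combination was -0.12 (adjusted p = 0.729). Xiap, the gene of its binding partner, rose in combination against vehicle libraries by 0.26 (adjusted p = 0.0297), had -0.06 for fusion protein minus vehicle (adjusted p = 0.63) and was lower in fusion protein than in combination libraries, at -0.32 (adjusted p = 0.0137).

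**Figure D2:**
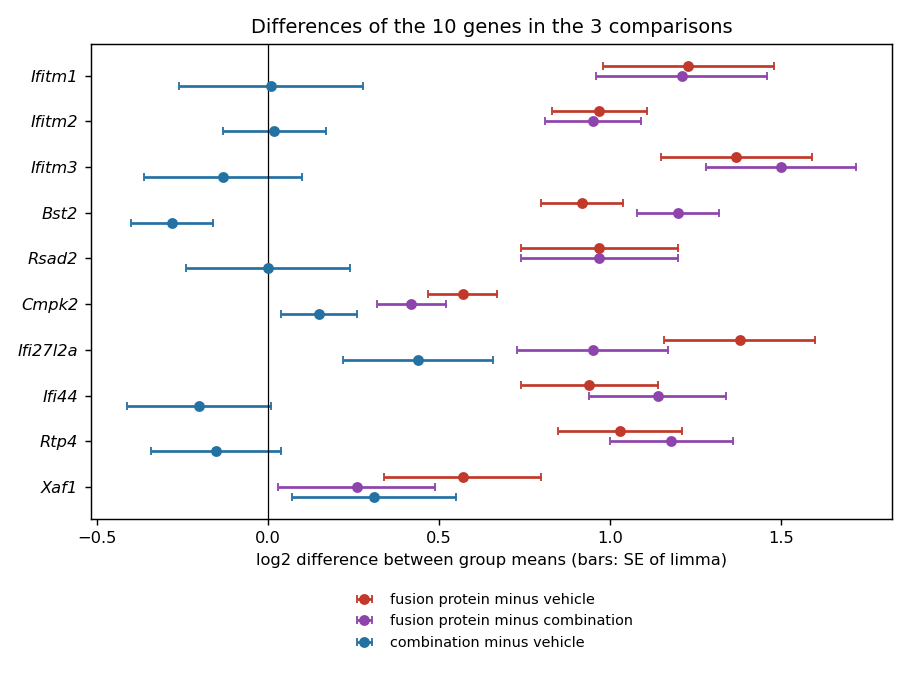
Log2 differences between group means for each gene in the 3 comparisons, with the SE of limma as bars. For fusion protein minus vehicle and fusion protein minus combination all genes except Xaf1 lie between 0.42 and 1.5, and for combination minus vehicle all lie between -0.28 and 0.44.

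In the comparison of fusion protein with vehicle, the fit over all genes placed 9 members past an adjusted p of 0.05, a count that the choice of genes leads to and that is given only as a description, beside 12.0% of all tested genes called higher. The median over the 10 members was 0.97, beside -0.02 over all tested genes. In 8 of them every fusion protein library lay above every vehicle library, beside 7.76% of all tested genes. Nothing is read from these counts.

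The comparison of fusion protein with combination asks whether the joined cytokines differ from the separate ones at the same total mass. Every combination library has a late label number and most fusion protein libraries an early one, so treatment is partly confounded with label number here. This comparison shares the fusion protein libraries with the comparison above. Its p-values therefore set each difference against the spread between libraries and are not independent of the choice of genes. It may itself have been among the results known when the list was drawn up, so the counts below describe the members and give no independent evidence. Of the 10 genes 9 rose, 0 fell and 1 did not pass, beside 7.35% of all tested genes called higher. Without combination replicates 4 and 5, a choice made after seeing the data, 5 of the 10 passed. The median was 1.06, beside -0.09 over all tested genes. In 6 members every fusion protein library was above every combination library, beside 3.09% of all tested genes. On the log2 scale of scaled values, which does not compress low values, the medians were 1.38 for fusion protein minus vehicle and 1.54 for fusion protein minus combination.

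For combination minus vehicle, 0 of the 10 members were called higher and 0 lower by limma, in a comparison where 24.2% of all tested genes were called higher and 12.3% lower. At an unadjusted p under 0.05 the count was 1, Bst2. The median over the members was 0.01, beside 0.06 over all tested genes. The 95% intervals reached up to 0.91 for Ifi27l2a and down to -0.65 for Ifi44, so differences of that size could not be told from none. With array weights 4 members passed, Ifi27l2a upward and Ifitm3, Rtp4 and Bst2 downward.

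Samples carry label numbers between 1 and 8 or between 12 and 19. The later numbers belong to the 5 combination libraries, fusion protein replicates 5 and 6 and vehicle replicate 5, and what the numbers stand for is not given. Treatment and label number are thus partly confounded in both comparisons with the combination. Within the fusion protein group the early libraries had more Rsad2 (497 to 873, against 389 and 437 in the late ones), Ifi44 (268 to 399, against 142 and 204), Rtp4 (398 to 819, against 299 and 384) and Xaf1 (503 to 933, against 351 and 440). Ifi27l2a was the reverse, with 175 to 288 in early and 421 and 697 in late libraries. In the other 5 genes the early and late libraries overlapped. The share of all tested genes with such a separation was not taken, so nothing particular to the members is read from it. Among the early numbers, with 4 fusion protein and 4 vehicle libraries, the fusion protein minus vehicle differences ran from 0.60 in Cmpk2 to 1.4 in Ifitm1. Among the late numbers, with 2 fusion protein and 5 combination libraries, fusion protein minus combination was 1.58 in Ifi27l2a, 1.43 in Ifitm3, 1.26 in Bst2, 1.04 in Ifitm1, 0.93 in Ifitm2, 0.86 in Rtp4, 0.66 in Ifi44, 0.57 in Rsad2, 0.24 in Cmpk2 and -0.15 in Xaf1.

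With the late number as a covariate the calls of Rsad2 (0.52, adjusted p = 0.0831) and Cmpk2 (0.22, adjusted p = 0.114) in fusion protein minus combination ended, and those of Cmpk2 and Xaf1 in combination minus vehicle were gained. Over the 30 alternatives of that comparison the adjusted p ran from 0.00198 to 0.0831 for Rsad2 and from 0.00526 to 0.114 for Cmpk2. Combination minus vehicle rests on 1 vehicle library among the late numbers. There Rsad2 was 0.66 (adjusted p = 0.0168), and that vehicle library held 118, the lowest value of the gene.

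**Figure D3:**
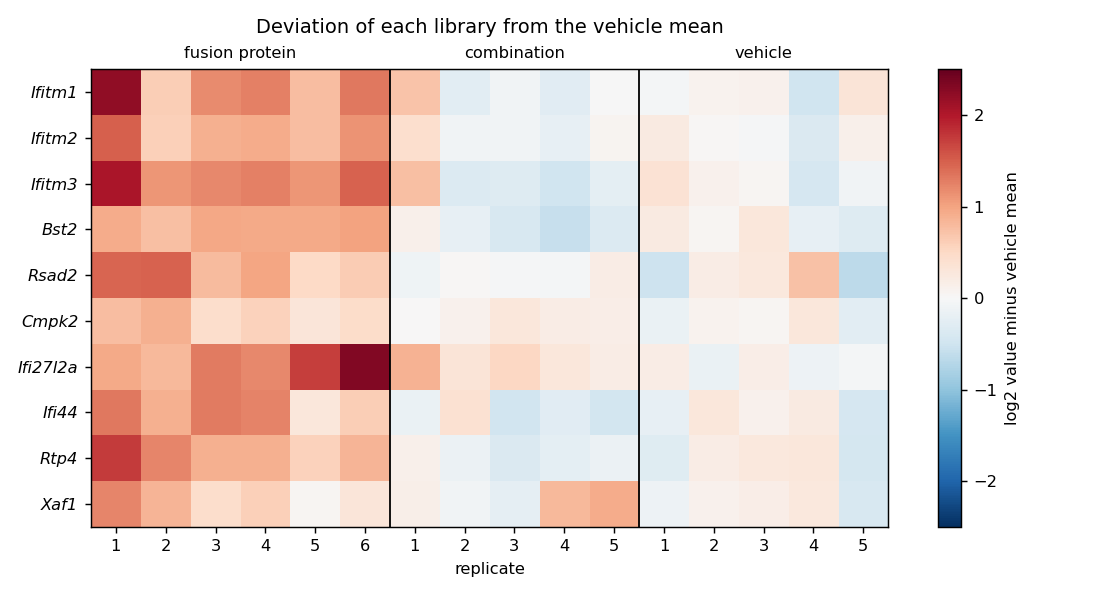
Log2 value of each gene in each library minus its mean over the 5 vehicle libraries (red above, blue below), with replicates of the fusion protein, combination and vehicle groups from left to right. Fusion protein replicate 1 is highest in the Ifitm genes and Rtp4, replicates 5 and 6 in Ifi27l2a, and combination replicates 4 and 5 stand out in Xaf1.

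Libraries of 1 group differed in which genes they favoured. Averaged over the 10 genes, fusion protein replicate 1 deviated by 1.41 from the vehicle mean, and the 5 others of its group by 0.70 to 1.01. Combination replicate 1 deviated by 0.29 and its 4 companions by -0.12 to 0.04, and the average ran from -0.22 to 0.14 in vehicle libraries. The gene furthest above the vehicle mean was Ifitm1 in fusion protein replicates 1 and 4, Rsad2 in replicate 2, and Ifi27l2a in replicates 3, 5 and 6. In replicates 1 to 4 all 10 genes exceeded every vehicle library, in replicate 6 it was 9 and in replicate 5 it was 8.

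Once each group's mean was removed, the genes fell into sets that varied together. Deviations of Ifitm1 and Ifitm2 correlated at r = 0.93 (rho = 0.90), of Ifitm2 and Ifitm3 at r = 0.91 (rho = 0.95), and of the divergent neighbours Rsad2 and Cmpk2 at r = 0.93 (rho = 0.91), each over 16 libraries. Without the 2 libraries farthest from the median of the first gene these were 0.85, 0.86 and 0.89. Rtp4, on another chromosome, followed Rsad2 at r = 0.83 (rho = 0.83, and 0.81 without the 2 farthest libraries). The Ifitm genes and the Rsad2 pair had r from -0.33 to -0.09, and -0.65 to -0.39 without fusion protein replicate 1 and combination replicate 1. Ifi27l2a ran against Cmpk2 at r = -0.59 (rho = -0.64, and -0.49 without the 2 farthest libraries). Over the 45 pairs the median was 0.21, with 31 above 0. These are descriptions of 16 libraries that share label numbers and, for the Ifitm genes, possibly reads, and the pairs were picked after their values were seen.

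**Figure D4:**
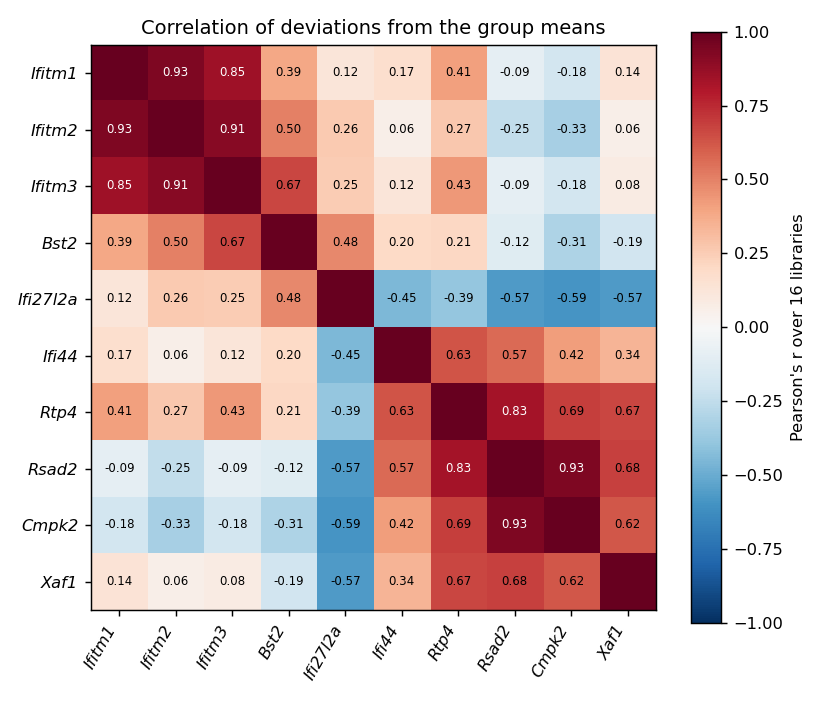
Pearson's r between the deviations of each pair of genes from their group means over 16 libraries. The Ifitm genes form a block of 0.85 to 0.93 and Rsad2, Cmpk2, Rtp4 and Xaf1 a block of 0.62 to 0.93, while Ifi27l2a is negative against the second block, at -0.59 to -0.39.

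Levels of different genes can be compared per kilobase of exon. In fusion protein libraries Ifitm3 led with 3821 ± 1140 scaled units per kilobase (SD, n = 6), followed by Ifitm2 with 1804 ± 461, Ifi27l2a with 735 ± 420, Ifitm1 with 519 ± 277 and Bst2 with 432 ± 32.2. Cmpk2 had 256 ± 44.0, Rtp4 221 ± 87.2, Rsad2 140.2 ± 49.0, Xaf1 124 ± 44.5 and Ifi44 48.2 ± 17.6. The libraries of neighbours in this order overlapped, apart from the steps below Ifitm3, Bst2 and Xaf1. In vehicle libraries Ifitm3 and Ifitm2 also led, with 1353 ± 299.8 and 822 ± 144 (SD, n = 5), and Ifi44 was again the lowest with 16.8 ± 6.09. Ifi27l2a held rank 3 in fusion protein and combination libraries and rank 6 in vehicle libraries, with 135 ± 34.5, and its libraries there overlapped with those of Ifitm1 and Rtp4 beside it.

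Other genes of the pathway were taken from a list of 58 interferon-stimulated genes without the members, 56 of which were tested. The list was drawn up with earlier results of these data known, so its counts are no independent evidence. Between fusion protein and combination 49 rose, 0 fell and 7 did not pass, beside 7.35% of all tested genes called higher. The median was 0.88, beside -0.09 over all tested genes. Between fusion protein and vehicle 46 rose and 0 fell, beside 12.0% called higher, with a median of 0.69 beside -0.02. For combination minus vehicle 2 rose and 2 fell, beside 24.2% called higher and 12.3% lower. The median was -0.13, beside 0.06. Gbp2, a guanylate-binding protein, had the largest difference between fusion protein and combination, 2.77 ± 0.42 (limma, adjusted p = 0.00175), and the ubiquitin-like Isg15 followed with 2.09 ± 0.10 (adjusted p = 1.54e-10).

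Of 9 interferon genes none passed the filter. Ifnb1, Ifna1, Ifna4, Ifnk, Ifne and Ifnl2 had the value of no signal in every library. Ifng, the gene of interferon gamma, named here after its values were seen, had scaled values of 3, 5, 5, 3, 3 and 6 in fusion protein libraries and 1 in every combination and vehicle library, which is too close to the floor for a fold change. None of 6 receptor chains passed between fusion protein and combination, where Ifngr1, at 0.17, came closest (limma, adjusted p = 0.051). Against vehicle Ifngr1, a chain of the interferon gamma receptor, rose with the fusion protein by 0.37 (adjusted p = 0.00044) and with the combination by 0.21 (adjusted p = 0.0198), and Ifnar1 and Ifnar2, the receptor of type I interferons, differed by 0.09 and 0.08 with the fusion protein and did not pass.

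Several genes of interferon signalling moved between fusion protein and combination libraries. Irf7, the factor that amplifies the type I response, rose by 1.89 (limma, adjusted p = 2.37e-08), Irf9 by 0.73 (adjusted p = 0.000892) and Stat2 by 0.37 (adjusted p = 0.0159). Irf8 rose by 0.44 (adjusted p = 0.0175), Irf1 by 0.36 (adjusted p = 0.0493), Irf5 by 0.35 (adjusted p = 0.0106) and the feedback inhibitor Socs3 by 1.52 (adjusted p = 0.0256), and the kinase Jak1 fell by 0.26 (adjusted p = 0.017). For combination minus vehicle Jak1 rose by 0.32 (adjusted p = 0.00292) and the kinase Tyk2 fell by 0.33 (adjusted p = 0.00157), while Irf7 was at -0.23 (adjusted p = 0.169). Tyk2 was also lower with the fusion protein than with vehicle, at -0.24 (limma, adjusted p = 0.0136). It had 0.09 for fusion protein minus combination (adjusted p = 0.337).

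Genes outside the list that followed it most closely were sought by the correlation with the mean of the 10 genes over all 16 libraries. Tor3a, Ccl5 and Oas1a reached r = 0.98 (rho = 0.93, 0.88 and 0.94), and Ifi204 and Slfn4 r = 0.97 (rho = 0.89 and 0.93). Tor3a is an interferon-responsive ATPase, Ccl5 a chemokine, Oas1a a sensor of double-stranded RNA, Ifi204 a DNA sensor and Slfn4 a myeloid gene. With group means removed the closest were Zbp1, a sensor of left-handed nucleic acid, at r = 0.94 (rho = 0.76), Ly96, a co-receptor of TLR4, at 0.92 (rho = 0.87), and Rbl1, the cathepsin gene Ctsh and Fam65b at 0.91 (rho = 0.94, 0.88 and 0.84).

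Some markers of macrophages and monocytes rose in the same comparisons as the 10 genes. Between fusion protein and combination 7 of 15 macrophage markers and 3 of 5 monocyte markers rose and 0 fell, while 8 and 2 did not pass. For fusion protein minus vehicle 10 of 15 and 4 of 5 rose. Of all tested genes 7.35% and 12.0% were called higher in these comparisons. The summed scaled value of the macrophage markers was 5862 to 13907 in fusion protein, 4764 to 6433 in combination and 3414 to 6062 in vehicle libraries. That of the monocyte markers, such as the chemokine receptor Ccr2, was 1147 to 4646, 766 to 977 and 380 to 903 in the same groups. The 10 T and NK cell markers lay below the filter, with sums of 100 to 267, 86 to 167 and 80 to 115. Of 9 tested neutrophil markers 2 rose in each of these comparisons, with sums of 2554 to 10481, 3180 to 4932 and 1925 to 4883. Endothelial markers summed to 2949 to 3887, 2981 to 3501 and 2901 to 3761, satellite glia markers to 43316 to 78011, 48802 to 59051 and 41817 to 61444, and Schwann cell markers to 60875 to 83476, 61898 to 83222 and 55829 to 87706 in the same order of groups. Between fusion protein and combination 3 of 7 satellite glia markers fell and 1 rose, 1 of 6 Schwann cell markers rose, and 2 of 6 fibroblast markers fell. In that comparison 2966 of all 13385 tested genes fell and 984 rose, so nothing is read from such counts in short lists. Named after their values were seen, Fabp7, a fatty acid binding protein of satellite glia, was at -0.78 there (limma, adjusted p = 0.00337) and Lum, a proteoglycan of fibroblasts, at -0.53 (adjusted p = 0.00251). Against vehicle they were at 0.84 and 0.69 with the combination (adjusted p = 0.000396 and 5.26e-05) and at 0.06 and 0.16 with the fusion protein (adjusted p = 0.792 and 0.228). Other markers of the same lists fell with the combination, such as Sox10 at -0.80 (limma, adjusted p = 5.15e-05) and Col1a1 at -0.72 (adjusted p = 0.00398). For combination minus vehicle 3 of 7 satellite glia markers rose and 1 fell, and 2 of 6 fibroblast markers rose and 2 fell. All tested genes had 24.2% called higher and 12.3% lower there. Fibroblast markers summed to 17029 to 20746, 18583 to 25069 and 15189 to 18267. No marker of these lists was without signal in all libraries of a group. In bulk tissue more cells of a type and more RNA per cell cannot be told apart, and the part of these cells in the differences of the 10 genes was not tested.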

How the data were processed

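RNA sequencing libraries of 16 DRG samples were analysed. Libraries were made with poly(A) selection per the labels' protocols. FastQC, STAR, GRCm38, HTSeq and DESeq2 are named, without versions, in the submitters' processing notes. The authors deposited 1 table of variance-stabilised log2 values for 36722 genes. Per the file headers the authors also gave GC content in percent. The deposited p-value columns do not name their comparison and were not used.

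The deposited log2 values were turned back into scaled values q = (x - k)²/x, where x is the value without the log and k the lowest x in the table, 5.99 on the log2 scale. This gave whole numbers within 0.01 for 100% of values. The scaling before deposition is not given in the sources used here. No 2 libraries were identical.

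Genes with a mean at least 1 above the lowest value (a scaled value of 31.8) were tested, 13385 in all, in 1 model of the 3 groups with limma 3.58.1 in R 4.3.3 with its trend and robust options. P-values are two-sided and were adjusted by Benjamini and Hochberg across these 13385 genes, with calls at 0.05. The step was tested on simulated data. Lengths are unions of exons of GENCODE M21, and 36345 genes matched. Python 3.11.15 was used for the tables and plots.

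The members, the 17 other lists and the tests were chosen with earlier results of these data known. Named beside the members are genes of interferon signalling that passed, the largest differences of the interferon-stimulated list, the 5 most alike genes, and relatives and neighbours of members. Some results on this pathway are not reported here. Any other gene is said to be chosen after its values were seen. Alternatives were no filter or a stricter one, centring on the median, quantile normalization, array weights, limma with neither option, only the groups compared, a replicate block, the late label number as a covariate, each range of label numbers alone, log2 of the scaled value plus 1, removal of GC and length trends, and the omission of each library. The omission of pairs of libraries was chosen after seeing the data.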

Additional observations from a re-analysis of the deposited data

Results flagged for a closer look

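Of 30 combinations of gene and group, 3 held a library far from the others of its group by Dixon's ratio, which flags about 1 in 20 groups by chance. Combination replicate 1 had a scaled value of 1595 in Ifitm3, against 602 to 746 in the other 4 combination libraries. The same library had 333 in Ifitm1, against 116 to 160 in the others. Fusion protein replicate 2 had 335 in Bst2, below the 388 to 420 of the other 5 fusion protein libraries.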

How the results depend on the processing

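Counts for fusion protein minus vehicle only describe genes chosen on it and say nothing of stability. They were 9 with all libraries, 9 to 10 when each library was left out, 5 among the late label numbers alone, where there is 1 vehicle library, and 8 to 10 under the other alternatives. For fusion protein minus combination 9 were called, and 9 throughout the omissions of 1 library. The choice of genes may have led to these counts too, so they are a description and no evidence of stability. Without combination replicates 4 and 5 the count was 5. There Ifitm1 (1.11), Ifi27l2a (0.82), Rsad2 (1.02) and Cmpk2 (0.44) no longer passed, with fewer samples and about the same differences. For combination minus vehicle 0 were called. The count was 4 with array weights, 1 in the model of only the groups compared, 2, Cmpk2 and Xaf1, with a covariate for the late label numbers, 1 among the late label numbers alone, 1 on the log2 scale of the scaled value plus 1, 0 to 1 over the omissions of 1 library, and 2 without fusion protein replicate 1 and combination replicate 1 together. Rsad2 in that comparison was -0.00 and turned to 0.66 among the late label numbers, where vehicle is 1 library, and the cause was not tested. With the replicate number as a block, the counts were 9 for fusion protein minus vehicle, 9 for fusion protein minus combination and 1, Ifi27l2a, for combination minus vehicle. Deviations of samples with the same number correlated at r = -0.196 to 0.598 over 15 pairs, 7 of them above 0.1. Samples with unequal numbers were not compared, so these values cannot tell whether the numbers pair the samples. Under the stricter filter Ifi44 was not tested. The read depth is unknown.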
